A study of Homo sapiens with 12 samples.

Results

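A scramble hairpin was compared with vector in LMSU, a human gastric cancer cell line with the R175H variant of p53. The comparison takes 4 of the 12 libraries of the series, 2 of scramble hairpin and 2 of vector, chosen by their labels alone and by no measured value. Per the labels, both groups received doxycycline and both keep p53 R175H, so neither carries an agent against p53. The labels name the other construct as vector and say no more of it, and neither the scramble sequence nor the element that doxycycline controls is given in the sources used here. The remaining 8 libraries, which enter the fit as shared information on spread, are 2 each of p53 shRNA 1 and p53 shRNA 2 (with doxycycline, labelled as without p53 R175H), and 2 each of a GFP-marked knockout construct (sg-1, labelled as without p53 R175H) and its GFP-marked control (V2, labelled as keeping it), both without doxycycline. The labels do not state whether a group's libraries stem from separate cultures or clones, so p-values here measure only the spread between these libraries, which may be technical.

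A short hairpin RNA is cut by the Dicer enzyme into a small RNA that an Argonaute protein uses to find matching transcripts. A scramble hairpin passes through the same steps with a sequence meant to match no transcript, whereas a vector control carries the backbone without a targeting hairpin. The comparison asks how far expression differed between these groups, neither of which is directed at p53.

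Total counts were 12971347 and 13873470 in the scramble hairpin libraries and 13836692 and 16823246 in the vector libraries, within the range over the series of 9738094 to 16823246. The 2 libraries of each group differed by more than sampling noise, with a chi-square per degree of freedom of 2.21 for scramble hairpin and 1.56 for vector. It was larger in the groups without doxycycline that share the fit, at 34.4 for the knockout control and 9.99 for p53 knockout. Levels are CPM, library-size-scaled counts with TMM factors, and changes are log2 fold changes of scramble hairpin over vector with their standard error (SE). Against the label of a gastric line, the epithelial genes EPCAM and CDH1 had at most 2 counts in each of the 4 libraries, KRT19 had at most 4, and the gastric secretory genes TFF1 and TFF2 had 0. Other members of these lists were present. The simple-epithelium keratin genes KRT8 and KRT18 stood at 171 to 198 CPM and 197 to 283 CPM, and GATA6, a transcription factor of the gut, at 32.3 to 36.7 CPM. Of 16 epithelial genes 8 were tested and 1 was called, MUC1, a membrane mucin, which was lower (log2 -0.63, a call lost with any 1 of the 4 libraries left out, adjusted p 0.0582 to 0.127). The summed epithelial level was 419 and 385 CPM in scramble hairpin and 474 and 449 CPM in vector. Of 9 measured gastric lineage markers 2 were tested, and none was called by edgeR (0 at an unadjusted p below 0.05). The mesenchymal filament gene VIM stood at 13490 to 16387 CPM, and the fibrillar collagen genes COL1A1 and COL1A2 at 5886 to 6917 CPM. Thus EPCAM, CDH1, KRT19, TFF1 and TFF2 were at or near 0 in both groups, KRT8, KRT18 and GATA6 were not, and the mesenchymal genes named were high in both.

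Many genes differed between scramble hairpin and vector. Of 13365 genes tested with edgeR's quasi-likelihood test, 2039 were called at an adjusted p below 0.05, which is 15.3%. Of the genes tested, 949 were higher in scramble hairpin (7.1%) and 1090 were lower (8.16%). Counts of called genes in the lists below are to be read against these shares. A fold change of at least 2 was reached by 221 of the higher and 185 of the lower genes. The median log2 fold change of all genes tested was -0.00056. The 2 libraries of one group lay wholly above or below the 2 of the other for 9248 of the tested genes (69.2%), so lack of overlap was common and is not read as a result by itself. The count depended on the libraries in the fit, being 5462 in the 8 doxycycline libraries and 5645 in the 4 compared libraries alone. With 1 of the 4 libraries left out it was lower: 921 without scramble hairpin replicate 1, 879 without scramble hairpin replicate 2, 902 without vector replicate 1 and 891 without vector replicate 2. These are counts in bulk RNA, in which fewer cells of a type and less RNA per cell cannot be told apart.

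**Figure D1:**
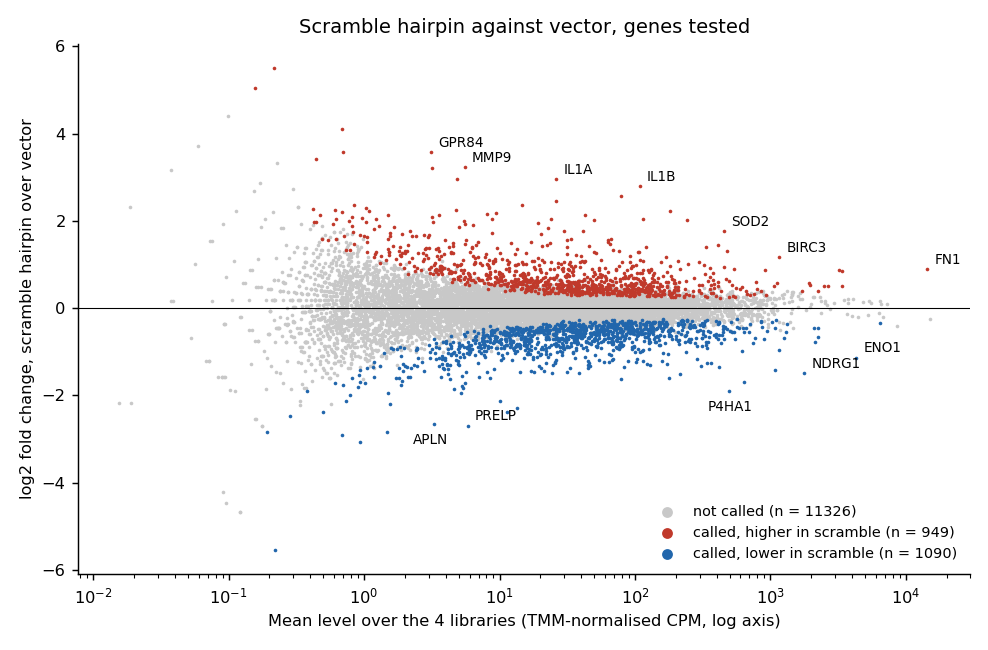
Log2 fold change of scramble hairpin over vector (vertical axis) against the mean CPM of the 4 libraries (log horizontal axis), with 1 point for each of the 13365 genes tested. Red points are the 949 genes called higher in scramble hairpin and blue points the 1090 called lower, and called genes range from MMP9 and APLN below 10 CPM to FN1 at 9981 CPM or more in each library.

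The genes given with the comparison are a gelatinase, a fatty acid receptor, a cytokine and a vascular peptide, and they were chosen with earlier results of these data known. MMP9, which encodes the matrix metalloprotease gelatinase B, was at 9.14 and 10.9 CPM in scramble hairpin and at 1.28 and 0.866 CPM in vector. The level was thus 9.4-fold higher (log2 3.23, SE 0.23, adjusted p = 8.0e-06), from 113 and 145 counts against 17 and 14. GPR84, a receptor for medium-chain fatty acids known from myeloid cells, was at 4.53 and 6.96 CPM in scramble hairpin and at 0.528 and 0.433 CPM in vector, where each library held 7 counts. Its log2 fold change of 3.57 had an SE of 0.43 (adjusted p = 0.00024), the widest error of the 4. IL1A, which encodes interleukin 1 alpha, was at 47.0 and 45.4 CPM in scramble hairpin and at 5.58 and 6.31 CPM in vector (log2 2.95, SE 0.11, adjusted p = 1.0e-07). APLN, which encodes the peptide apelin, went the other way, at 0.890 and 0.898 CPM in scramble hairpin and 6.11 and 5.32 CPM in vector. It was 6.31-fold lower in scramble hairpin (log2 -2.66, SE 0.26, adjusted p = 5.3e-05). In none of the 4 genes did the libraries of the groups overlap, which held for every called gene and adds nothing to these calls.

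Among the 15 largest increases were 3 secreted cytokines. IL1B, which encodes interleukin 1 beta, was at 195 and 184 CPM in scramble hairpin against 29.3 and 25.4 CPM in vector (log2 2.80, SE 0.12). IL24, a cytokine of the interleukin 10 family, was at 142 and 129 CPM against 23.6 and 22.3 CPM (log2 2.56, SE 0.13). With IL1A they make up the cytokines of this set. Matrix and protease genes were also among the largest. DCN, which encodes the collagen-binding proteoglycan decorin, was at 305 and 295 CPM against 66.3 and 62.5 CPM (log2 2.22, SE 0.085). CHI3L1, which encodes a secreted chitinase-like protein, was at 45.1 and 42.6 CPM against 8.60 and 7.36 CPM (log2 2.46). TFPI2, a secreted serine protease inhibitor, was at 70.2 and 69.1 CPM against 15.3 and 16.4 CPM (log2 2.13). SERPINB2, the second plasminogen activator inhibitor, was at 14.5 and 16.6 CPM against 2.72 and 4.02 CPM (log2 2.19), and CSGALNACT1, an enzyme that starts chondroitin sulfate chains, rose by 2.16 on the log2 scale. MFSD2A, a lysophospholipid transporter, rose from 4.60 and 4.89 to 25.1 and 24.0 CPM (log2 2.36). The others were low in vector: SLC14A1, a urea transporter, rose from 1.51 and 0.742 to 8.65 and 8.53 CPM, and MYBPH, TTC29 and KRT79, at 0.453 to 1.86 CPM in vector, rose by 3.22, 2.24 and 2.08 on the log2 scale. The largest adjusted p of the 15 was 0.0011, for KRT79, the last gene inside the naming rule, and IL6 at a log2 fold change of 2.05 was the first outside it.

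Among the 15 largest decreases were APLN, described above, and a second proteoglycan gene. PRELP, a leucine-rich proteoglycan of the same family as decorin, was at 1.37 and 1.72 CPM in scramble hairpin and 9.05 and 11.1 CPM in vector (log2 -2.69, SE 0.32), opposite to DCN. ARTN, which encodes the neurotrophic ligand artemin, was at 5.09 and 4.12 CPM against 22.8 and 22.0 CPM (log2 -2.28). KCNS1, a modifier subunit of voltage-gated potassium channels, was at 4.53 and 3.07 CPM against 15.8 and 17.0 CPM (log2 -2.12). All 3 were at most 5.09 CPM in scramble hairpin. P4HA1, a collagen prolyl hydroxylase subunit, was at 212 and 209 CPM against 782 and 790 CPM (log2 -1.90, SE 0.085, adjusted p = 2.3e-07). PTPRF, a receptor tyrosine phosphatase of cell contacts, was at 295 and 304 CPM against 969 and 968 CPM (log2 -1.69, SE 0.080). BNIP3L, a receptor for removal of mitochondria by autophagy, was at 84.0 and 92.3 CPM against 265 and 271 CPM (log2 -1.61), and ARHGAP29 at 37.0 and 40.1 CPM against 113 and 123 CPM (log2 -1.61). The naming rule took only called genes without overlap, so the separation of the groups in these 4 genes adds nothing to their calls. The rest were at most 8.90 CPM in vector except ZNF114 at 13.1 and 12.6 CPM. They were the semaphorin gene SEMA5B (log2 -1.95), the liprin gene PPFIA4 (log2 -1.84), the prostaglandin E receptor gene PTGER3 (log2 -1.82), the junction gene PLEKHA7 (log2 -1.80), the bone morphogenetic protein antagonist gene NOG (log2 -1.72) and the CDK5 activator gene CDK5R1 (log2 -1.63). ZNF114, a zinc finger gene, was the last inside the rule at -1.60, and TSPAN10 at -1.59 the first outside it. All 30 genes kept their call with any 1 of the 4 libraries left out.

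**Figure D2:**
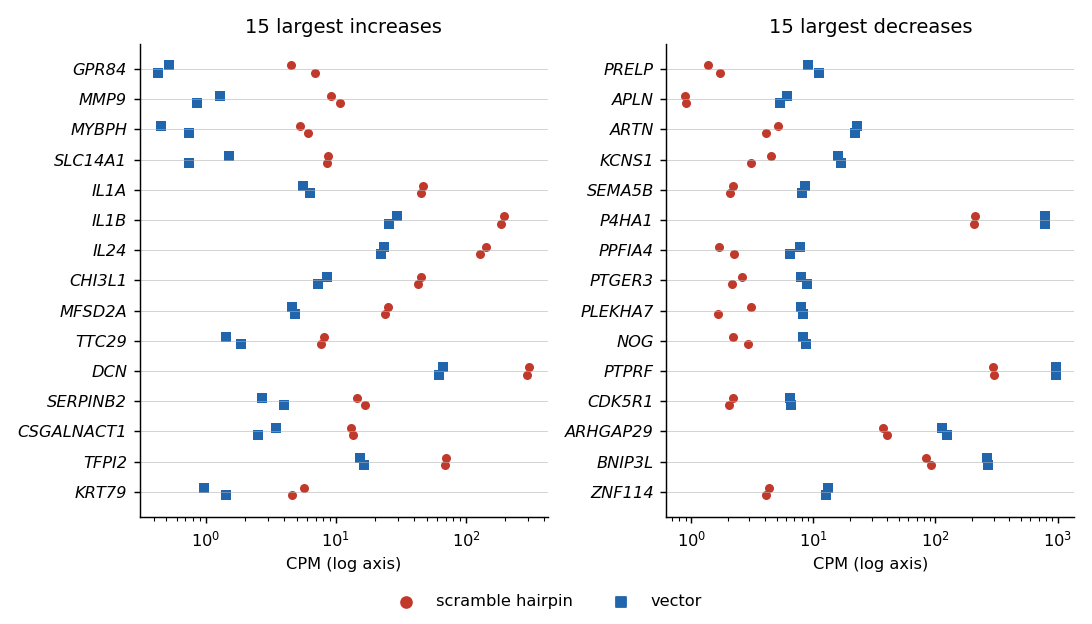
CPM (log horizontal axis) in each of the 4 libraries for the 15 largest increases (left) and the 15 largest decreases (right) chosen by the naming rule, with red circles for the 2 scramble hairpin libraries and blue squares for the 2 vector libraries. The naming rule took only genes without overlap, so the colours are separate in every row. Levels run from GPR84 at 0.433 CPM in a vector library to PTPRF at 969 CPM in another.

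NF-kB is a family of transcription factors held in the cytoplasm by inhibitors and released by cytokines and other danger signals. Released NF-kB raises chemokines and cytokines, and also its own inhibitors, which end the response. Both kinds of gene were higher in scramble hairpin. To show the sequence behind this family, the 250 bases before the RefSeq start (build GRCh38.p14, gene strand) are given for the 2 CXC chemokine genes with the smallest adjusted p, CXCL8 at chr4:73740319-73740568 (plus strand) and CXCL1 at chr4:73869143-73869392 (plus strand). Capitals mark GGNNTTTCC, a form of the NF-kB site searched on both strands and chosen after the promoters had been seen.
CXCL8: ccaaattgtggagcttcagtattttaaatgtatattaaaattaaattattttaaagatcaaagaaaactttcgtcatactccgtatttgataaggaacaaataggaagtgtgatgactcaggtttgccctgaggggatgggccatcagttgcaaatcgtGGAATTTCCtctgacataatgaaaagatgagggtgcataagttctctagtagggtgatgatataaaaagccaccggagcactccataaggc
CXCL1: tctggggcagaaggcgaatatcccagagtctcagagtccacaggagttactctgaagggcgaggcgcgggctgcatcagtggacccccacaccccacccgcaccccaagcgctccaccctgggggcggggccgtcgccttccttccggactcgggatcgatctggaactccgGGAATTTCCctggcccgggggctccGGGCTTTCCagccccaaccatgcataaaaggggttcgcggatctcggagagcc
CXCL8 holds 1 match, 91 bases before the start, and CXCL1 holds 2, at 78 and 53 bases before it. Over all 35116 RefSeq promoters of this length 5.48% held a match. The share was 66.7% in the CXC chemokine list (8 of 12 promoters) and 51.9% in the list of NF-kB subunits and feedback genes (14 of 27 promoters of 16 genes). Such a match is a description of letters and not of a bound site.

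Of 18 NF-kB subunits and feedback genes, all tested, 11 were called higher (61.1%, against 7.1% of all genes) and 0 lower, with a median log2 fold change of 0.61 against -0.00056 for all genes. With any 1 of the 4 libraries left out, 8 or 9 were called. TNFAIP3, which encodes the deubiquitinating brake A20, was at 150 and 147 CPM in scramble hairpin and 67.9 and 70.5 CPM in vector (log2 1.10, SE 0.081). NFKBIA, which encodes the inhibitor IkB alpha, was at 286 and 271 CPM against 153 and 146 CPM (log2 0.90). NFKBIZ, a nuclear inhibitor family member, rose by 1.05 and TNFAIP2 by 0.69 on the log2 scale. The increases of these 4 genes lay between 0.69 and 1.10 on the log2 scale. Of genes chosen after their values were seen, BIRC3, an inhibitor of apoptosis, was at 1554 and 1655 CPM against 704 and 729 CPM (log2 1.16), NFKB1, the p105 and p50 subunit, rose by 0.52, and RELA, the main activating subunit, had a log2 difference of 0.19 (adjusted p = 0.15).

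Of 13 listed CXC chemokine genes 6 were tested, and 5 of them were higher. These ligands of neutrophil receptors lie side by side on chromosome 4. CXCL8, interleukin 8, was at 182 and 184 CPM in scramble hairpin and 43.4 and 45.5 CPM in vector (log2 2.04, SE 0.13). CXCL5 was at 89.9 and 97.0 CPM against 31.5 and 34.1 CPM (log2 1.51). CXCL1 was at 19.6 and 18.9 CPM against 7.39 and 7.54 CPM (log2 1.36). These genes were named for their small adjusted p, so the closeness of the 2 libraries of a group adds nothing to their calls. CXCL2 rose by 1.26 and CXCL3 by 1.28 on the log2 scale. CXCL1, CXCL2 and CXCL3 are close copies of each other, so reads may have been split between them. CXCL16, an unlike member of the family, had a difference of -0.03 (adjusted p = 0.96). Of the listed CC and CX3C chemokines CCL20 alone was tested, at 22 and 22 counts in scramble hairpin against 7 and 3 in vector (adjusted p = 0.0052, and up to 0.0727 with 1 library left out).

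In the interleukin 1 family 11 of 17 listed genes were tested, 5 were higher and 1 lower. The receptor antagonist gene IL1RN rose together with both ligands, from 7.39 and 8.29 to 31.9 and 29.0 CPM (log2 1.95, SE 0.14). NLRP3, the inflammasome sensor, was at 13.8 and 13.2 CPM against 4.53 and 3.71 CPM (log2 1.72), and IL18R1, an interleukin 18 receptor subunit, rose by 1.17. Ligands, antagonist and sensor therefore rose, but the signalling receptor did not pass the test: IL1R1 was at 83.8 and 88.7 CPM in scramble hairpin and 82.5 and 79.4 CPM in vector (adjusted p = 0.63). The accessory receptor gene IL1RAP was lower at -0.68, a call lost with any 1 of the 4 libraries left out (adjusted p 0.0502 to 0.0911). Of 12 tested genes of the interleukin 6 family 3 were higher. IL6 was at 39.4 and 38.3 CPM against 7.77 and 10.9 CPM (log2 2.05, SE 0.14) and IL11 at 57.4 and 53.2 CPM against 23.0 and 25.4 CPM (log2 1.19). LIF rose by 0.45, a call lost with any 1 library left out (adjusted p 0.099 to 0.179), and the shared receptor gene IL6ST had a difference of -0.52 (adjusted p = 0.25).

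Effector genes of inflammation were mostly higher, with 10 of 13 tested members higher, 0 lower and a median log2 fold change of 1.41. SOD2, the mitochondrial superoxide dismutase, was at 686 and 707 CPM in scramble hairpin and 209 and 203 CPM in vector (log2 1.76, SE 0.076). PTGS2, the inducible cyclooxygenase, was at 376 and 403 CPM against 96.3 and 94.7 CPM (log2 2.03). Complement genes were among them: C3, the central complement protein, was at 47.5 and 44.8 CPM against 13.7 and 13.4 CPM (log2 1.77) and CFB, of the alternative pathway, at 180 and 171 CPM against 66.0 and 66.4 CPM (log2 1.41). In the complement list 5 of 12 tested genes were higher and 0 lower, with the classical pathway proteases C1S (log2 1.32) and C1R (log2 1.08) beside C3 and CFB. Of 10 tested receptors for metabolites and inflammatory signals, GPR84 and FPR1 were higher and PTGER4 was lower. FPR1, the formyl peptide receptor, rose by 0.64, and that call was lost with any 1 library left out (adjusted p 0.0624 to 0.192), as was that of PTGER4 in 2 of the 4 such fits (adjusted p 0.0305 to 0.134).

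Matrix metalloproteases cut collagens and other matrix proteins, and TIMP proteins block them. Of 16 tested metalloprotease genes 6 were higher and 0 lower, and the count was 6 with any 1 library left out. MMP2, gelatinase A, was at 4378 and 4320 CPM in scramble hairpin and 2415 and 2418 CPM in vector (log2 0.85, SE 0.078). The collagenase gene MMP13 was at 90.8 and 102 CPM against 36.6 and 32.7 CPM (log2 1.48), and MMP1 at 8.33 and 9.81 CPM against 3.17 and 3.65 CPM (log2 1.40). Both gelatinases and both of these collagenases were thus higher. The neutrophil collagenase gene MMP8 rose by 1.67 and the membrane-bound MMP14, which activates MMP2, by 0.88, while stromelysin MMP3 had a difference of 0.86 (adjusted p = 0.11). None of the 5 tested inhibitors was called by edgeR in the fit to all 12 libraries, by DESeq2 or by limma-voom, and 1 had an unadjusted p below 0.05. In the 8 doxycycline libraries, in the 4 compared libraries and without a filter 1 was called higher. Over all genes the fit to the 8 doxycycline libraries called 2577 of 12980 higher and 2885 lower. The fit to the 4 compared libraries called 2749 of 12715 higher, and that without a filter 1092 of 19366. TIMP1 was at 216 and 197 CPM against 151 and 150 CPM (adjusted p = 0.089) and TIMP2 at 1099 and 1104 CPM against 1151 and 1128 CPM (adjusted p = 0.70). In plasminogen activation 4 of 7 tested genes were higher and 1 lower (3 higher and 0 lower with any 1 library left out, 4 higher and 2 lower in the 8 doxycycline libraries). The summed level of this list was lower in scramble hairpin, at 1628 and 1623 CPM against 1815 and 1824 CPM. Among the higher genes was the urokinase receptor gene PLAUR at 173 and 167 CPM against 94.8 and 92.1 CPM (log2 0.86).

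Among matrix genes the directions were mixed. In the small leucine-rich proteoglycans 3 of 6 tested genes were higher and 2 lower (1 lower with any 1 library left out). LUM, which encodes lumican, was at 612 and 593 CPM in scramble hairpin and 221 and 224 CPM in vector (log2 1.44, SE 0.082), and BGN, biglycan, rose by 0.81. Of 18 collagen chains 8 were higher and 0 lower, but only 4 to 7 with 1 library left out (4 without scramble hairpin replicate 1 or vector replicate 2, and 5 without vector replicate 1). COL4A1, a basement membrane chain, rose by 0.82 and COL3A1, a fibrillar chain, by 0.58, at 2299 and 2278 CPM against 1518 and 1548 CPM. The type I collagen genes did not pass the test, with differences of -0.11 for COL1A1 (adjusted p = 0.51) and 0.08 for COL1A2 (adjusted p = 0.58). Matrix glycoproteins split into 4 higher and 5 lower of 14 (3 higher and 1 or 2 lower with any 1 library left out). FN1, fibronectin, was at 18206 and 19154 CPM against 9981 and 10229 CPM (log2 0.89), whereas FBN1, the microfibril protein fibrillin 1, was at 236 and 246 CPM against 431 and 430 CPM (log2 -0.84, a call lost in 3 of the 4 fits that leave out 1 library, with adjusted p 0.0474 to 0.0668). The hyaluronan synthase gene HAS2 rose by 0.88 and CEMIP, which promotes hyaluronan breakdown, by 1.30.

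Genes of the response to low oxygen were lower in scramble hairpin. Hypoxia-inducible factors bind the core letters ACGTG or GCGTG when oxygen falls and switch on glucose uptake, glycolysis, angiogenic signals and removal of mitochondria. The sequences below are the 250 bases before the RefSeq start (GRCh38.p14, gene strand) of BNIP3 at chr10:131981924-131982173 (minus strand) and of PGK1 at chrX:78103998-78104247 (plus strand). They are shown as a hypoxia-response gene and a glycolytic gene named by the rule, with matches on either strand in capitals.
BNIP3: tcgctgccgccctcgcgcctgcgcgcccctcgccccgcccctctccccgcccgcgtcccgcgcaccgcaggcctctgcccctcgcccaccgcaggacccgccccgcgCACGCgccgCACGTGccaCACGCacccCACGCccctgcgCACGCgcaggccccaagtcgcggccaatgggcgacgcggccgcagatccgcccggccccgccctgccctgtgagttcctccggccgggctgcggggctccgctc
PGK1: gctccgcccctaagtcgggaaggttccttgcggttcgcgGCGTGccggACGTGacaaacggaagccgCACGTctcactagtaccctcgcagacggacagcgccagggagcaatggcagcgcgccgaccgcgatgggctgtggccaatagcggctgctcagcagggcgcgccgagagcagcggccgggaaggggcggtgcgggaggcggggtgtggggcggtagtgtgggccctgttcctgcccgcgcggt
The script found 6 matches in BNIP3, some of them overlapping, and 3 in PGK1, at 211, 202 and 183 bases before the start. At least 1 match was present in 43.2% of all promoters, in 80.0% of those of the hypoxia list (20 of 25) and in 55.6% of those of the glycolysis list (25 of 45). The cell cycle lists given below held a match in 15 of 25 promoters (G2/M) and 18 of 29 (G1/S, 62.1%). Both shares exceeded that of the glycolysis list, so the excess was not limited to lists of low-oxygen genes. The share was below that of all promoters in the NF-kB list (11 of 27) and the CXC chemokine list (3 of 12). GGNNTTTCC was found in 0 promoters of the hypoxia and G2/M lists and in 20.7% of the G1/S list (6 of 29).

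Of 22 tested hypoxia-response genes 16 were called lower (72.7%, against 8.16% of all genes) and 1 higher, with a median log2 fold change of -0.80. With 1 library left out 10 to 12 were called lower: 12 without scramble hairpin replicate 1, 10 without scramble hairpin replicate 2, 12 without vector replicate 1 and 11 without vector replicate 2. NDRG1, a stress-response gene, was at 929 and 930 CPM in scramble hairpin and 2635 and 2616 CPM in vector (log2 -1.50, SE 0.088). BNIP3, like BNIP3L a receptor for removal of mitochondria, was at 117 and 107 CPM against 323 and 317 CPM (log2 -1.51). SLC2A1, the glucose transporter, was at 207 and 194 CPM against 489 and 477 CPM (log2 -1.27). The same direction held for less abundant members: the carbonic anhydrase gene CA9 (log2 -1.39), the prolyl hydroxylase gene EGLN3 (log2 -1.56) and the microRNA host transcript MIR210HG, induced by low oxygen, at 3.72 and 3.52 CPM against 19.7 and 18.1 CPM (log2 -2.38). VEGFA, the main angiogenic growth factor, was the exception, at 483 and 476 CPM in scramble hairpin and 275 and 275 CPM in vector (log2 0.80, SE 0.069). Of 7 tested genes of the factors themselves and their regulators 2 were higher and 1 lower (1 higher and 1 lower with any 1 library left out), with differences from -0.60 to 1.43. HIF1A was at 152 and 169 CPM against 164 and 169 CPM (adjusted p = 0.88), its partner ARNT had a difference of -0.01, and EPAS1, which encodes HIF-2 alpha, had one of -0.31 (adjusted p = 0.052). The related ARNT2 was higher at 30.6 and 29.8 CPM, against a mean of 11.2 CPM in vector (log2 1.43, SE 0.13, adjusted p = 4.3e-05). CITED2, which competes with these factors for a coactivator, was lower at 144 and 142 CPM against 218 and 214 CPM (log2 -0.60).

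Most glycolytic genes were lower too, with 15 of 19 tested enzymes lower and 0 higher (median -0.68), and 12, 9, 11 and 12 lower without scramble hairpin replicate 1, scramble hairpin replicate 2, vector replicate 1 and vector replicate 2. PGK1, phosphoglycerate kinase, was at 242 and 227 CPM in scramble hairpin and 603 and 596 CPM in vector (log2 -1.35, SE 0.092). ENO1, the abundant enolase, was at 2756 and 2645 CPM against 5973 and 5878 CPM (log2 -1.13), and ENO2 fell by 1.26. HK2, hexokinase, fell by 1.16 and LDHA, which makes lactate, fell by 0.97. LDHB, which favours the reverse reaction, was at 634 and 622 CPM against 599 and 590 CPM (adjusted p = 0.68). GAPDH, often used as a reference gene, had a difference of -0.40 (adjusted p = 0.068), with 7644 and 7226 CPM against 9874 and 9743 CPM.

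**Figure D3:**
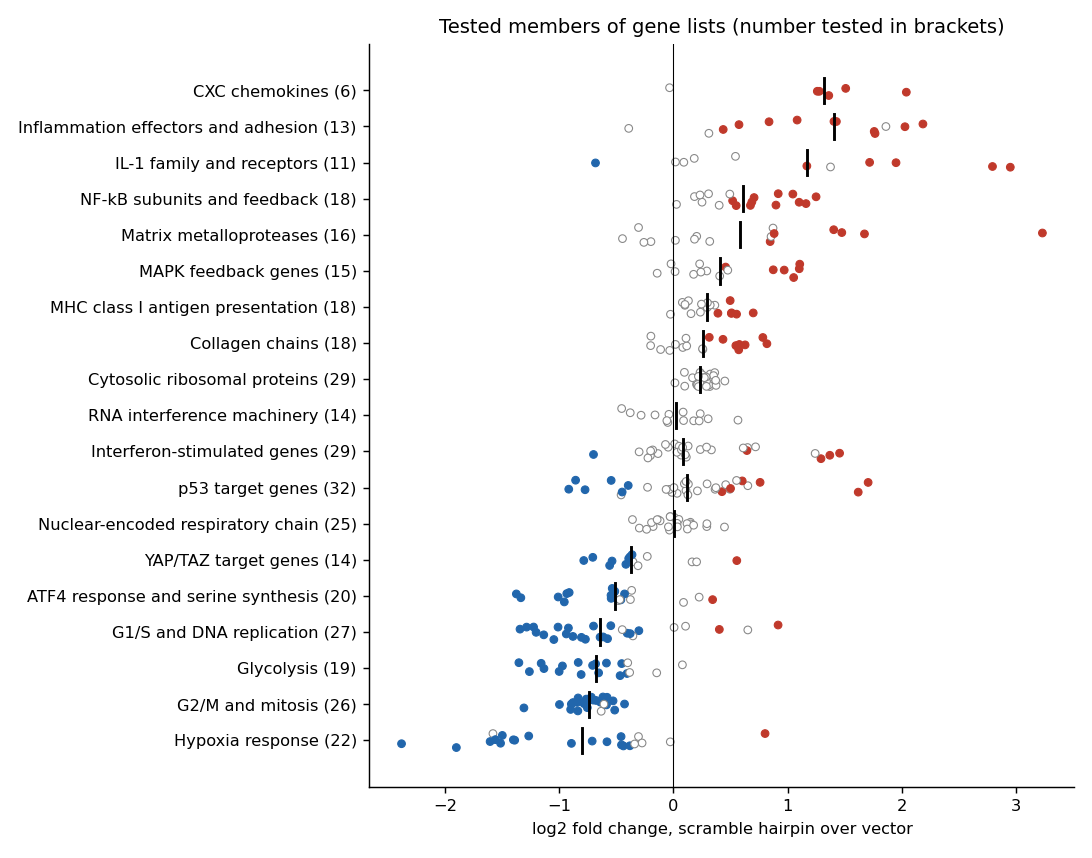
Log2 fold change of scramble hairpin over vector (horizontal axis) for every tested member of 19 gene lists (rows, number tested in brackets), with filled points for called genes, open points for genes not called and a black bar at each list's median. Medians run from 1.41 for inflammation effectors to -0.80 for the hypoxia response, and the ribosomal protein genes lie in a narrow band between 0.01 and 0.45 with 0 called.

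Cell cycle genes were lower as well. Late cell cycle genes are switched on through the elements CCAAT and TTTGAA, the latter called the cell cycle genes homology region. The promoter of PLK1, the mitotic polo-like kinase, is shown as an example chosen after its values were seen (chr16:23678639-23678888, plus strand, GRCh38.p14, 250 bases before the start), with both elements in capitals.
PLK1: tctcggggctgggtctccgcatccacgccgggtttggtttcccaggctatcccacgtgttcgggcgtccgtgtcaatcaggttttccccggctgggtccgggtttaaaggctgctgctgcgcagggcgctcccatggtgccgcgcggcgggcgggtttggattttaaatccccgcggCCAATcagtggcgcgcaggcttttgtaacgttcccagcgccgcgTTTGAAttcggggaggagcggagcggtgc
CCAAT lies 73 and TTTGAA 29 bases before the start. On either strand CCAAT was found in 84.0% of promoters of the G2/M list (21 of 25) against 32.0% of all promoters. TTTGAA was found in 48.0% (12 of 25) against 13.3%. The G1/S list held CCAAT in 65.5% of its promoters (19 of 29) and TTTGAA in 0 of 29.

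In the G2/M and mitosis list 24 of 26 tested genes were lower (92.3%) and 0 higher, with a median of -0.74 and a range from -1.31 to -0.43. Without scramble hairpin replicate 2 the count was 16, and 19 without each of the other 3 libraries. BIRC5, which encodes survivin, was at 81.0 and 66.6 CPM in scramble hairpin and 186 and 180 CPM in vector (log2 -1.31, SE 0.13). CCNA2, cyclin A, was at 73.1 and 71.9 CPM against 147 and 143 CPM (adjusted p = 5.0e-05), PLK1 at 96.7 and 91.6 CPM against 164 and 160 CPM (log2 -0.78), and the spindle gene TPX2 at 177 and 188 CPM against 310 and 310 CPM (log2 -0.76). The uncalled members were CENPE (-0.63, adjusted p = 0.086) and the proliferation marker MKI67 (-0.61, adjusted p = 0.088). In G1/S and DNA replication 20 of 27 were lower and 2 higher, and 12, 10, 11 and 12 were lower without scramble hairpin replicate 1, scramble hairpin replicate 2, vector replicate 1 and vector replicate 2. CDT1, a licensing factor, fell by 1.20, the transcription factor gene E2F1 by 1.14, ORC1 by 1.05 and the polymerase gene POLE by 0.88. CCND1, cyclin D1, was higher, at 466 and 475 CPM against 247 and 251 CPM (log2 0.92, SE 0.076), and so was MCM6 (log2 0.40, a call lost with any 1 library left out, adjusted p 0.0721 to 0.143).

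Of 20 nucleotide synthesis genes 7 were lower and 0 higher. RRM1, the large ribonucleotide reductase subunit, was at 91.9 and 99.0 CPM against 221 and 223 CPM (log2 -1.22, SE 0.078). TYMS, thymidylate synthase, fell by 1.21 and TK1, thymidine kinase, by 1.34. Of 17 homologous recombination and Fanconi genes 7 were lower and 0 higher (4 without vector replicate 2 and 5 or 6 without each of the others), with FANCI at -0.77, FANCD2 at -0.82 and RAD54L at -1.20. Of 20 genes of the ATF4 response and serine synthesis, 13 were lower and 1 higher (median -0.52), with 9, 7, 7 and 8 lower when scramble hairpin replicate 1, scramble hairpin replicate 2, vector replicate 1 and vector replicate 2 were left out. The stress pseudokinase gene TRIB3 was at 25.8 and 24.0 CPM in scramble hairpin and 64.3 and 65.0 CPM in vector (log2 -1.38), and PHGDH, which starts serine synthesis, at 157 and 157 CPM against 316 and 316 CPM (log2 -1.01). PSAT1 fell by 0.93, ASNS, asparagine synthetase, by 0.91 and DDIT3, a stress factor, by 0.96, while the ATF4 transcript had a difference of -0.38 (adjusted p = 0.087).

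Other signalling lists held called genes in part, beside 7.1% of all genes called higher and 8.16% called lower. The lower TGF-beta genes given below were 13.0% of those tested, not far from that share. Of 14 YAP/TAZ targets 8 were lower and 1 higher (4 lower with any 1 library left out), with AJUBA at -0.78, the receptor kinase gene AXL at -0.71 and CYR61 at 1060 and 1053 CPM against 1564 and 1548 CPM (log2 -0.56). Feedback genes of the MAPK pathway went the other way, with 6 of 15 higher and 0 lower. The phosphatase gene DUSP6 was at 76.5 and 76.4 CPM against 36.7 and 34.3 CPM (log2 1.11), and PHLDA1 at 1171 and 1200 CPM against 632 and 660 CPM (log2 0.88). SPRY4, a receptor-signal inhibitor, rose by 1.05 and the immediate early gene EGR1 by 0.96. INHBA, the activin A subunit, was at 390 and 404 CPM against 188 and 195 CPM (log2 1.05), although the TGF-beta list as a whole had 5 higher and 3 lower of 23 (3 or 4 higher and 0 lower with any 1 library left out). Of 18 NRF2 targets 5 were lower and 0 higher (2 or 3 with any 1 library left out), with NQO1, a quinone reductase, at 66.1 and 65.8 CPM against 135 and 130 CPM (log2 -1.01). Of 14 heat shock genes 5 were higher (2 with any 1 library left out), led by HSPA8 at 606 and 591 CPM against 310 and 316 CPM (log2 0.93).

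Genes that process hairpins or sense RNA were examined because only one group carries a construct labelled as an shRNA. None of the 14 tested genes of the RNA interference machinery was called by edgeR in the fit to all 12 libraries, by DESeq2 or by limma-voom, 4 had an unadjusted p below 0.05, and their median was 0.02. DICER1 was at 37.9 and 45.1 CPM in scramble hairpin and 25.9 and 30.2 CPM in vector (adjusted p = 0.13), AGO2 at 44.0 and 48.3 CPM against 61.8 and 64.6 CPM (adjusted p = 0.15), and DROSHA had a difference of -0.16 (adjusted p = 0.36). Over all genes tested, 3878 of 13365 had an unadjusted p below 0.05 by edgeR. With the 8 doxycycline libraries alone, whose spread was smaller, 4 of the 14 were called higher and 3 lower. That fit called 2577 of all 12980 genes tested higher and 2885 lower. Double-stranded RNA in the cytoplasm can switch on interferon-stimulated genes. Of 29 tested interferon-stimulated genes 4 were higher (13.8%, against 7.1% of all genes) and 1 lower, with a median of 0.08. IFI44L was at 31.2 and 34.2 CPM against 11.2 and 12.6 CPM (log2 1.46), OAS2 rose by 1.29 and IFI44 by 0.64, while IFIT1 was lower at 8.73 and 9.43 CPM against 14.0 and 15.5 CPM (log2 -0.70). Other members did not pass the test, with MX1 at 0.24 (adjusted p = 0.19) and ISG15 at 0.33 (adjusted p = 0.22). Of 19 sensing genes 5 were higher and 2 lower, but 3, 1, 1 and 2 were higher when scramble hairpin replicate 1, scramble hairpin replicate 2, vector replicate 1 and vector replicate 2 were left out. DDX58, the sensor RIG-I, was at 17.5 and 17.5 CPM against 8.30 and 9.40 CPM (log2 0.98, SE 0.16), and IFIH1, the sensor MDA5, rose by 0.61, a call lost in 3 of the 4 fits that leave out 1 library (adjusted p 0.0473 to 0.0689). Of 18 MHC class I genes 6 were higher, and 1 with any 1 library left out. TAPBP, the peptide-loading protein tapasin, rose by 0.55, and the HLA genes, which are close copies, are uncertain where reads were split.

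Textbook targets of p53 showed no common direction, with 6 of 32 tested higher, 6 lower and a median of 0.12 (with any 1 library left out, 3 or 4 higher and 2 or 3 lower). In the fit to all 12 libraries each direction held 18.8% of the tested targets, against 7.1% of all genes called higher and 8.16% called lower. CDKN1A, the cell cycle inhibitor p21, was at 116 and 119 CPM in scramble hairpin and 70.0 and 68.4 CPM in vector (log2 0.76, SE 0.12, adjusted p = 0.0011). GDF15, a stress cytokine, was at 32.6 and 29.0 CPM against 9.20 and 9.65 CPM (log2 1.71), and C12orf5, the metabolic regulator TIGAR, rose by 1.62. PLK2, a kinase, was lower at 231 and 239 CPM against 443 and 444 CPM (log2 -0.92), as was the DNA repair gene DDB2 at -0.77. MDM2, which encodes the ligase that degrades p53, was at 42.8 and 41.4 CPM against 41.0 and 41.2 CPM (adjusted p = 0.92), and the apoptosis genes BAX and BBC3 had differences of -0.01 and 0.13.

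Several lists of housekeeping functions held few or 0 called genes in the fit to all 12 libraries. None of 25 respiratory chain genes was called by edgeR (median 0.01, 4 at an unadjusted p below 0.05), while DESeq2 called 1 and limma-voom 0. For proteasome subunits 1 of 25 was called higher, and for mitochondrial translation 1 of 22. None of 29 cytosolic ribosomal protein genes was called by edgeR, DESeq2 or limma-voom, though all 29 had positive values, with a median of 0.23 and 6 at an unadjusted p below 0.05. These counts depend on which libraries set the spread. Over all genes tested, 3878 of 13365 had an unadjusted p below 0.05 by edgeR in the fit to all 12 libraries. The fit to the 8 doxycycline libraries called 2577 of all 12980 genes tested higher and 2885 lower. In that fit 27 of the 29 ribosomal genes were called higher. The same fit called 8 respiratory chain genes higher and 6 lower, 3 proteasome subunits higher and 5 lower, and 2 mitochondrial translation genes higher and 3 lower.

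Several of the inflammatory genes are also known from macrophages, so markers of other cell types were read beside them. Of 10 macrophage and monocyte markers 2 were tested and 3 were at 0 in all 4 libraries. The summed level of the list was 449 and 430 CPM in scramble hairpin and 418 and 413 CPM in vector, nearly all of it CD68, a lysosomal protein found in many cells (443 and 425 against 417 and 411 CPM). CD14 had at most 2 counts per library and LYZ at most 1. CSF1R, the macrophage growth factor receptor, was at 62 and 56 counts against 15 and 27 (log2 1.69, SE 0.24). None of 10 lymphocyte markers was tested, 6 were at 0 in all 4 libraries, and the pan-leukocyte gene PTPRC had at most 3 counts. Fibroblast markers had 6 of 11 tested genes higher and 1 lower, with summed levels of 19476 and 18775 CPM against 17622 and 17653 CPM. The part of CSF1R-expressing or fibroblast-like cells in the results was not tested.

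The levels in the remaining groups place both controls. These values are given side by side and share the libraries of the comparison. MMP9 averaged 4.35 CPM with p53 shRNA 1, 6.93 CPM with p53 shRNA 2 and 5.92 CPM in the knockout control, all above vector and below scramble hairpin. IL1A averaged 14.4, 32.7 and 64.7 CPM in those groups, so vector was lowest and scramble hairpin was exceeded by the knockout control. P4HA1 averaged 622 and 633 CPM with the p53 hairpins and 236 CPM in the knockout control, so that scramble hairpin stood near the knockout control and vector near the p53 hairpins. DCN, at 283 and 548 CPM with the p53 hairpins and 33.3 CPM in the knockout control, showed the reverse pattern. GPR84 averaged 3.38 and 10.7 CPM with the p53 hairpins and 0.216 CPM in the knockout control, and APLN 0.403, 1.16 and 21.7 CPM. CXCL8 averaged 89.8 and 238 CPM with the p53 hairpins but 1030 CPM in the knockout control. Among the 4 doxycycline groups, vector had the lowest mean for 797 of the 949 genes higher in scramble hairpin and scramble hairpin the highest mean for 507. Of the 1090 lower genes, vector had the highest mean for 900 and scramble hairpin the lowest for 610. Over all 13365 genes tested, vector had the lowest mean for 3782 and the highest for 3784. Scramble hairpin had the highest mean for 2762 and the lowest for 2813. The selection of the called genes fixes part of their counts, which are a description and do not show which control is the unusual one.

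**Figure D4:**
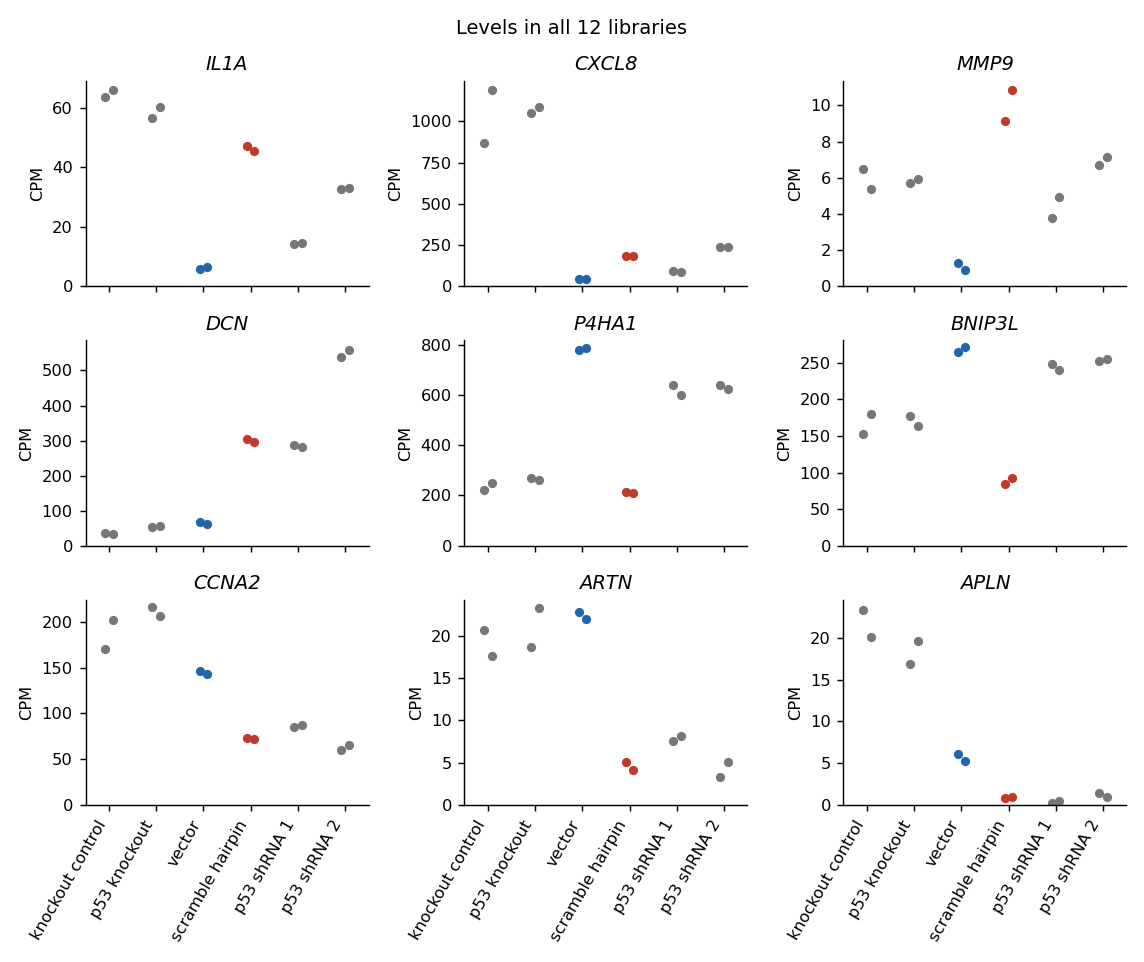
CPM (vertical axes, from 0) of 9 genes in each of the 12 libraries, 2 points for each of the 6 groups on the horizontal axis, with vector in blue, scramble hairpin in red and the other groups in grey. Scramble hairpin and vector differ by the test for every gene shown, and APLN lies at 5.32 CPM or more in vector and at 0.898 CPM or less in scramble hairpin.

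Genes that lie next to each other were compared along the RefSeq order (GRCh38.p14), a property that the choice of libraries did not use. Of 13087 neighbouring pairs of tested genes, 390 had both members called, 275 of them in the same direction. Of all genes tested 15.3% were called, so some such pairs and longer runs occur whatever the order. The number expected from that share was not computed, and the counts here are a description. There were 45 runs of 3 or more neighbours called in 1 direction, 24 higher and 21 lower. The longest held 6 genes, CXCL8, CXCL1, CXCL5, CXCL3, CXCL2 and MTHFD2L, in which MTHFD2L, a folate enzyme, was at 2.83 and 2.92 CPM in scramble hairpin and 1.06 and 1.24 CPM in vector. Its call was lost with any 1 library left out (adjusted p 0.0507 to 0.0769). Another run of 5 higher genes held CSF1R and PDGFRB, paired growth factor receptor genes. A shorter run held C1S with C1R. A lower run of 4 held TYMSOS, TYMS and ENOSF1 in this order, of which TYMSOS, named as its opposite-strand transcript, overlaps TYMS in RefSeq. The call of TYMSOS was lost without scramble hairpin replicate 2 and without vector replicate 1, which breaks the run (adjusted p 0.0182 to 0.0739 over the 4 fits that leave out 1 library). As strand use in counting is not given, reads of such overlapping genes cannot be told apart.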

How the data were processed

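RNA was sequenced from 12 LMSU libraries, 2 in each of 6 groups, and 4 were compared. Per the labels, RNA was extracted with a column kit and libraries were made with an mRNA kit. A single table was deposited by the authors, with raw counts for 25435 gene symbols and no normalisation. The submitters' processing notes list bcl2fastq, STAR 2.5 and hg19, and the sources used here do not give counting mode, strand or annotation.

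Counts were fitted with edgeR 4.0.16 in R 4.3.3 over all 12 libraries, with 1 coefficient per group (6 residual degrees of freedom), filterByExpr (minimum count 10), TMM scaling and the two-sided quasi-likelihood F test. Benjamini-Hochberg adjustment ran over 13365 genes, and a gene was called below 0.05. The SE is the absolute log2 fold change divided by the square root of F. The procedure was tested on simulated data. Alternatives used DESeq2 1.42.0, limma-voom (limma 3.58.1), other scalings, filters, thresholds and sets of libraries, a replicate block, and each compared library left out. Figures were drawn with matplotlib 3.10.9.

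Genes were named by a rule: MMP9, GPR84, IL1A, APLN, CDKN1A and MDM2 always; in each direction the 15 largest called changes among genes without overlap between the groups and with a mean of 5 CPM or more in the higher group, without clone, antisense, pseudogene, MIR, SNOR and LINC names; and up to 4 members of a list with the smallest adjusted p. Not every gene taken by the rule is reported here. EPCAM, CDH1, KRT19, TFF1, TFF2, CD14, LYZ and PTPRC come from the fixed cell type markers. Outside the rule, and named after their values were seen, were BIRC3, NFKB1, RELA, CXCL3, CXCL16, PTGS2, IL1R1, IL1RAP, IL18R1, MMP3, MMP8, MMP14, COL1A1, COL1A2, VIM, KRT8, FBN1, DDIT3, ATF4, DROSHA, EGLN3, CA9, SLC2A1, MIR210HG, HIF1A, ARNT, ENO1, GAPDH, LDHB, MCM6, CENPE, MKI67, PLK1, E2F1, BAX, BBC3, DDB2, MX1, ISG15, MTHFD2L, TYMSOS and ENOSF1. The members and lists were chosen with earlier results of these data known. Of 1021 entries in 61 lists written from general knowledge, 1020 matched the table, 4 of them through another symbol. Promoter sequences come from RefSeq, build GRCh38.p14, and were matched by symbol.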

Additional observations from a re-analysis of the deposited data

How the results depend on the processing

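The fit to all 12 libraries was the more cautious one, since its biological coefficient of variation was 9.55% against 3.08% in the 8 doxycycline libraries and 2.88% in the 4 compared libraries. The fit to the 8 doxycycline libraries called 5462 genes (2577 higher, 2885 lower) and that to the 4 compared libraries 5645 (2749 higher, 2896 lower). Leaving out 1 of the 4 libraries gave 879 to 921 calls, with 373 to 423 higher and 475 to 529 lower, where the lone library was assumed to vary like the other groups. An adjusted p below 0.01 left 1012 (448 higher, 564 lower) and a fold of at least 2 left 406 (221 higher, 185 lower). Other scalings, filters and tools (DESeq2 and limma-voom) gave 1684 to 2570 calls. The 2 numbers of a group did not pair scramble hairpin with vector (correlation of deviations 0.0045), and a replicate block gave 1717 calls. Of 290 named genes, 47 to 59 lost their call with 1 library left out, 12 with the block, 14 with DESeq2 and 0 with limma-voom. None of the named genes changed direction together with a call in any alternative. The low totals in vector of GPR84, CCL20 and MMP9 limit the precision of their folds.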
